A study of Drosophila melanogaster with 9 samples.

Results

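Neuroblasts, the neural stem cells of the fly larval brain, renew themselves by dividing asymmetrically, and 10 genes of the machinery of that division are described here: *brat*, *mira*, *insc*, *numb*, *pon*, *baz*, *aPKC*, *par-6*, *l(2)gl* and *pins*. They were taken by name for their known roles, with earlier results of these data already known, and all 10 were found among the 14560 gene entries of the count table and all 10 passed the filter on low counts. The samples were larval brains of *Drosophila melanogaster* that lack Brat function, so that they are filled with extra type II neuroblasts, and Insb was overexpressed in them for 0, 9 or 18 hr, with 3 RNA-seq libraries at each time. Every larva, the 0 hr controls included, carried *brat11* over the deficiency *Df(2L)Exel8040* together with *2xTub-Gal80ts*, *Wor-Gal4* and *UAS-insb*. Larvae grew at 25 °C, for 5 days by the sample records, and those of the induced groups were moved to 33 °C for the last 9 or 18 hr, whereas the 0 hr larvae stayed at 25 °C. By the study's methods the time at 25 °C was shorter the longer the induction, and brains of the different groups were dissected on the same day. Whether the replicates also shared a day is not stated. Gal80ts blocks Gal4 at the lower temperature only, so hours of Insb overexpression and hours at 33 °C cannot be told apart in this design. The study's text also names *AseGal80*, a repressor that limits the driver to type II neuroblasts. No library from a brain with functional *brat* was analysed here, so the values below compare times within the mutant and say nothing of the difference between mutant and normal brains.

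When a neuroblast divides, a cap of Bazooka, Par-6 and atypical protein kinase C forms at its apical cortex, Inscuteable and Pins align the spindle with that cap, and the kinase drives its substrates to the opposite, basal cortex. The adaptors Miranda and Partner of Numb carry Brat, Prospero and Numb into the smaller basal daughter, where these proteins end self-renewal. In the type II lineage that daughter becomes an immature intermediate neural progenitor, and without Brat it reverts to a neuroblast. Much of this system works through where the proteins sit and how they are phosphorylated, and RNA-seq measures only how much transcript the whole brain held.

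The libraries held 26533845 to 37109356 reads assigned to genes, and each of the 10 genes rested on at least 2265 reads in every library. Values are given as CPM, counts per 1000000 assigned reads after TMM scaling (factors 0.967 to 1.02). The sample records call the cells neural stem cells, but the RNA came from whole dissected brains, and transcripts of neurons (7 marker genes summing to 1268 to 1494 CPM) and glia (6 genes, 532 to 745 CPM) were present in every library beside those of neuroblast renewal genes (7 genes, 1377 to 2026 CPM). In such bulk samples, fewer cells of a type and less RNA per cell cannot be told apart. Replicates 2 and 3 at 9 hr were closer to each other than any other pair of replicates (median chi-square per gene 0.812 over 8163 genes, against 2.03 to 6.26). Sampling alone gives 0.455 where single reads were counted and 0.91 where both reads of a pair were, and which of these holds is not given in the sources used here; in the genes with the most reads the pair stood at 2.81, above both, and the other pairs at 24.8 to 102. As a precaution this pair is counted as 1 sample in means and SDs, and n is 2 at 9 hr and 3 at 0 and 18 hr. The fitted tests kept all 9 libraries, and p-values measure only the spread between these samples. Induction worked as labelled: *insb* stood at 32.5 to 36.9 CPM at 0 hr, at 369 to 396 CPM at 9 hr and at 310 to 359 CPM at 18 hr, a fitted log2 fold change of 3.49 at 9 hr and 3.30 at 18 hr against 0 hr.

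None of the 10 genes passed the test at any time, against a background of 11.8% of the 10799 tested genes at 9 hr against 0 hr, 1.66% at 18 hr against 0 hr and 0.00926% at 18 hr against 9 hr (edgeR quasi-likelihood test, Benjamini-Hochberg adjusted p under 0.05). With a change of at least 1.5-fold also required, none passed either (background 3.69%, 0.833% and 0.00926%). At an unadjusted p under 0.05 the counts were 4 of 10 (background 28.6%), 2 of 10 (17.8%) and 3 of 10 (10.8%). DESeq2 called 2, 1 and 1 of them, namely *l(2)gl* and *baz* at 9 hr against 0 hr, *par-6* at 18 hr against 0 hr and *baz* at 18 hr against 9 hr. At 9 hr all 10 genes had fitted values below their 0 hr level, with a median log2 fold change of -0.15 where the median of all tested genes was 0.003, and 49.6% of all tested genes were fitted below 0. At 18 hr against 0 hr 7 of 10 were below 0 (47.5% of all tested genes) and their median was -0.03, but the count was 3 of 10 without replicate 1 at 18 hr and 4 of 10 without replicate 3 at 0 hr. Both comparisons use the same 0 hr libraries, so the values stand side by side and are not independent.

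**Figure D1:**
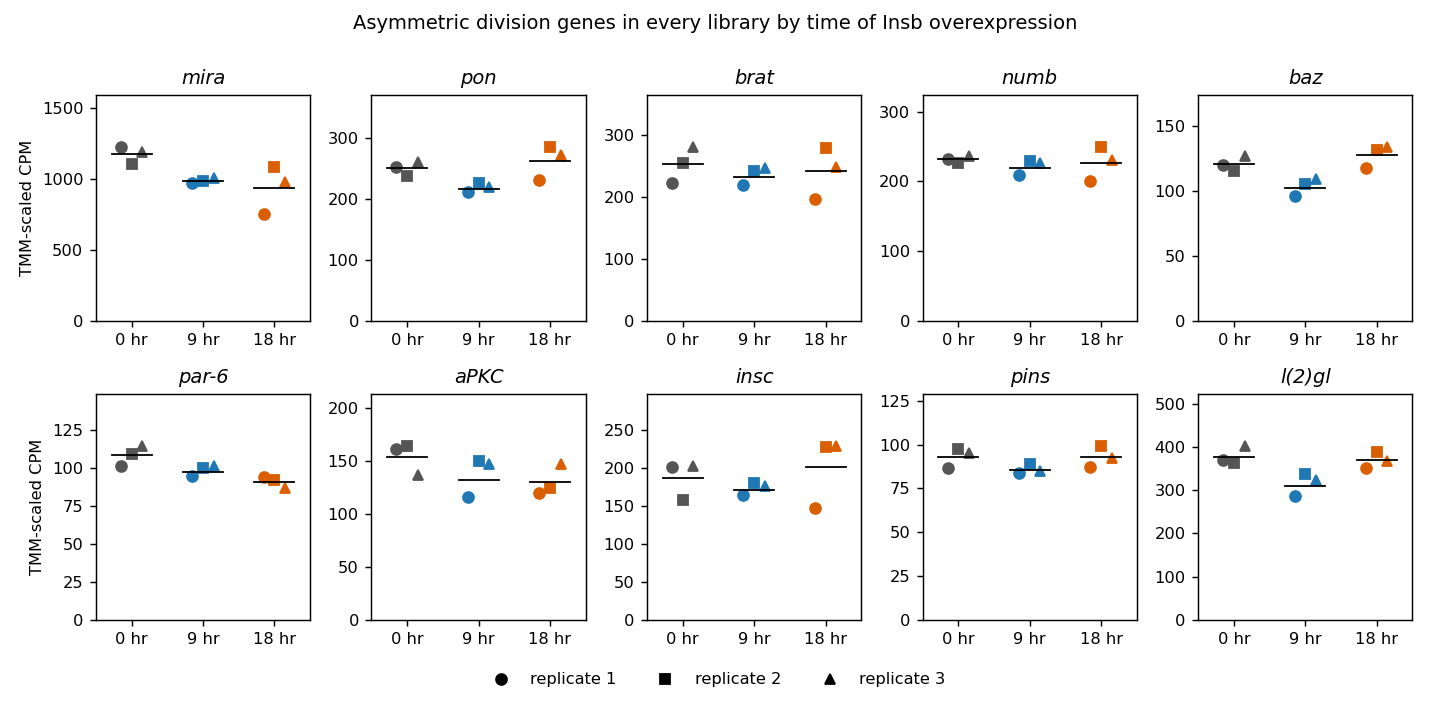
Transcript level of each of the 10 genes in every library, in CPM on axes that start at 0, against hours of Insb overexpression; points are libraries and black bars the mean of a time, with replicates 2 and 3 at 9 hr averaged first and counted as 1 sample. At 9 hr the 3 libraries of *l(2)gl*, *baz*, *pon* and *mira* lie below all 3 at 0 hr, and at 18 hr those of *par-6* and *mira* do.

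Among the 3 genes of the apical Par complex, *baz* had its lowest mean at 9 hr and *par-6* and *aPKC* at 18 hr, and none of these differences passed the test. Bazooka is the scaffold that gathers the other members at the cortex, and *baz* lies on the X chromosome (positions 17160006 to 17200728 of dm6). It measured 120, 115 and 127 CPM in the 3 libraries at 0 hr, 96.3, 105 and 109 CPM at 9 hr and 117, 131 and 134 CPM at 18 hr. All 9 hr libraries were thus below all 0 hr and all 18 hr libraries, while 0 and 18 hr overlapped. The fitted level at 9 hr was 0.859 of that at 0 hr (95% interval 0.766 to 0.962), and the difference did not pass (edgeR, adjusted p = 0.0853). At 18 hr it was 1.23-fold the 9 hr level (95% interval 1.10 to 1.38), which ranked 120 of 10799 genes by p and still missed the threshold (edgeR, adjusted p = 0.260). Against 0 hr the 18 hr level was 1.06-fold (95% interval 0.942 to 1.18).

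Par-6 links the kinase to the small GTPase Cdc42 and to Bazooka. Its gene *par-6*, also on the X chromosome (17703352 to 17707096), gave 102, 109 and 115 CPM at 0 hr, 94.8 to 102 CPM at 9 hr and 94.2, 92.0 and 87.3 CPM at 18 hr. The 18 hr libraries were the lowest and overlapped neither the 0 hr nor the 9 hr libraries. Among the 10 genes *par-6* had the smallest p at 18 hr against 0 hr, rank 351 of 10799, with a fitted level of 0.840 (95% interval 0.765 to 0.922; edgeR, adjusted p = 0.0727). At 9 hr it was 0.911 of the 0 hr level (95% interval 0.830 to 0.999; edgeR, adjusted p = 0.172).

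The kinase gene *aPKC* lies on 2R (14944458 to 14962969); its product phosphorylates Miranda, Numb and Lgl and so keeps them off the apical cortex. It measured 161, 164 and 137 CPM at 0 hr, 116, 150 and 147 CPM at 9 hr and 119, 124 and 147 CPM at 18 hr. One library at each time lay away from the other pair, so the groups overlapped in all comparisons. The fitted level was 0.896 at 9 hr (95% interval 0.736 to 1.09) and 0.847 at 18 hr (95% interval 0.696 to 1.03) of that at 0 hr. The Par partners listed beside these genes (among them *Cdc42*, *Dap160*, *cno*, *par-1* and *Lkb1*) gave 0 calls of 10 in either direction at 9 hr and at 18 hr against 0 hr (edgeR, background 11.8% and 1.66%). At an unadjusted p under 0.05 there were 1 of 10 at 9 hr (background 28.6%) and 2 of 10 at 18 hr (17.8%). DESeq2 called 1 at each time, *Lkb1* higher at 9 hr and *Rap1* lower at 18 hr.

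Ratios within the Par complex were picked after the values were seen and were not tested. The ratio of *par-6* to *baz* CPM was 0.850 to 0.950 over the 0 hr libraries, 0.932 to 0.985 over the 9 hr libraries and 0.654 to 0.805 over the 18 hr libraries. All 18 hr libraries were below every other library in this ratio, and the 0 and 9 hr libraries overlapped. The ratio of *aPKC* to *baz* CPM was 1.07 to 1.42 at 0 hr, 1.21 to 1.42 at 9 hr and 0.948 to 1.10 at 18 hr, so the 0 hr libraries overlapped those of both other times.

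Inscuteable binds Bazooka and recruits Pins, which holds the microtubule motor machinery at the cortex. For *insc* (2R, 20821262 to 20836028) the values were 201, 157 and 202 CPM at 0 hr, 164, 180 and 176 CPM at 9 hr and 148, 228 and 228 CPM at 18 hr. The gene spread more than the others at 18 hr, where replicate 1 lay below every other library of the study and the other pair above them all. Its intervals were the widest of the 10 genes: 0.710 to 1.21 of the 0 hr level at 9 hr and 0.823 to 1.41 at 18 hr. Exons of *insc* share 359 bases with *sktl* on the same strand, a gene at a mean of 61.3 CPM, so part of the reads could belong to either and *insc* is the least certain of the levels given here. For *pins* (3R, 27582840 to 27586376; entered in the table under its older symbol *raps*) the values were 86.6, 97.7 and 95.2 CPM at 0 hr, 83.7, 88.7 and 84.8 CPM at 9 hr and 87.0, 99.0 and 92.2 CPM at 18 hr. The groups overlapped throughout. The fitted level was 0.920 at 9 hr (95% interval 0.830 to 1.02) and 0.995 at 18 hr (95% interval 0.897 to 1.10) of that at 0 hr.

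Further genes that orient the spindle were taken from a list of 15. At 9 hr 0 rose and 3 fell by edgeR, where the background was 6.62% of genes higher and 5.22% lower. At 18 hr none passed, with 5 of 15 at an unadjusted p under 0.05 (background 17.8%) and 2 by DESeq2, *ctp* and *Gbeta13F*. DESeq2 at 9 hr called 1 higher, *Ggamma1*, and 4 lower, *Khc-73* besides the 3 that edgeR called. These 3 were *Dhc64C*, the dynein heavy chain, *ctp*, the dynein light chain, and *Gbeta13F*, a G protein beta subunit. *Dhc64C* read 375, 348 and 383 CPM at 0 hr, 233, 279 and 286 CPM at 9 hr and 313, 345 and 354 CPM at 18 hr. Its 9 hr libraries were below all others, and the log2 fold change at 9 hr was -0.47 (SE 0.0871; edgeR, adjusted p = 0.0143), against -0.13 at 18 hr (edgeR, adjusted p = 0.508). *ctp* fell by 0.33 on the log2 scale at 9 hr (SE 0.0450; edgeR, adjusted p = 0.00516) and *Gbeta13F* fell by 0.30 (SE 0.0788; edgeR, adjusted p = 0.0432). The calls of *Dhc64C* and *ctp* held in all 17 alternative settings and that of *Gbeta13F* in 8 of them; without replicate 1 at 9 hr it did not pass (edgeR, adjusted p = 0.148). *mud*, which encodes the dynein anchor that binds Pins, had a log2 fold change of -0.26 at 9 hr (edgeR, adjusted p = 0.209), and *Galphai*, whose product tethers Pins to the membrane, of -0.07 (edgeR, adjusted p = 0.428).

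Lgl is a cortical tumour suppressor that opposes the apical kinase until mitosis, and *l(2)gl* (2L, 9839 to 21376) had the smallest p of the 10 genes at 9 hr. It gave 368, 362 and 401 CPM at 0 hr, 287, 337 and 322 CPM at 9 hr and 351, 388 and 367 CPM at 18 hr. The 9 hr libraries were below all libraries of the other times, and the 0 and 18 hr libraries overlapped. The fitted 9 hr level was 0.836 of the 0 hr level (log2 fold change -0.26, SE 0.0736, 95% interval of the level 0.744 to 0.940), rank 1421 of 10799 by p, and it missed the threshold (edgeR, adjusted p = 0.0572). At 18 hr it was 0.977 of the 0 hr level (95% interval 0.870 to 1.10) and 1.17-fold the 9 hr level (95% interval 1.04 to 1.31; edgeR, adjusted p = 0.354).

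Of 8 genes for the cortical scaffold and actomyosin, 1 rose and 1 fell at 9 hr (background 6.62% higher and 5.22% lower). At 18 hr 1 rose (background 0.907% higher and 0.75% lower). The gene that rose at both times was *jar*, the myosin VI motor that Miranda needs for its basal transport. It stood at 135, 147 and 135 CPM at 0 hr, 190, 214 and 222 CPM at 9 hr and 211, 211 and 216 CPM at 18 hr. Its lowest induced library was above its highest 0 hr library, and the log2 fold change was 0.59 at 9 hr (SE 0.0666; edgeR, adjusted p = 0.00300) and 0.62 at 18 hr (SE 0.0666; edgeR, adjusted p = 0.00517). *zip*, the non-muscle myosin II heavy chain, fell by 0.24 on the log2 scale at 9 hr (SE 0.0582; edgeR, adjusted p = 0.0364). *jar* passed at both times in all 17 alternative settings, and *zip* passed in 7 of them at 9 hr (edgeR, adjusted p = 0.114 without replicate 2 at 0 hr). *scrib*, a scaffold that acts with Lgl, had a log2 fold change of -0.31 at 9 hr (edgeR, adjusted p = 0.0740) and -0.21 at 18 hr (edgeR, adjusted p = 0.308). DESeq2 at 9 hr called *scrib* lower, besides *zip* lower and *jar* higher.

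**Figure D2:**
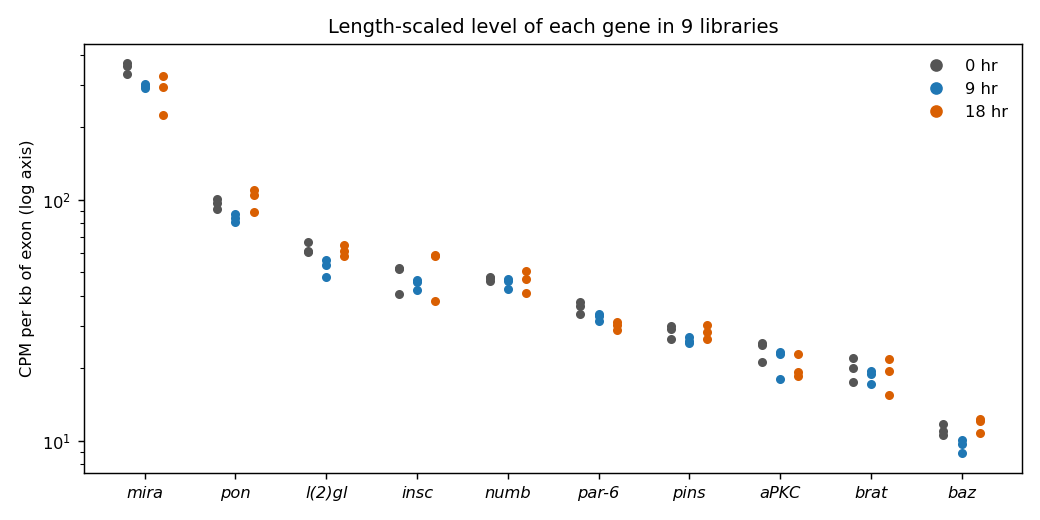
Level of each gene per kilobase of exon in the 9 libraries, in CPM per kilobase on a logarithmic axis, with points for libraries coloured by time. *mira* lies above all other genes in every library and *baz* below them, while *insc* and *numb* change places between libraries.

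Per length of transcript, *mira* was the most abundant of the 10 genes, at a mean of 310.8 CPM per kilobase of exon, rank 178 of the 10685 tested genes with an annotated length. On the same scale *pon* followed at 93.9, *l(2)gl* at 59.1, *insc* at 48.2, *numb* at 46.2, *par-6* at 32.8, *pins* at 27.6, *aPKC* at 21.9, *brat* at 19.1 and *baz* at 10.8 CPM per kilobase. The order held in 9 of 9 libraries for all neighbours except *insc* and *numb*, where *insc* was the higher in 4 of 9, and *aPKC* and *brat*, where *aPKC* was the higher in 7 of 9. The ranges over libraries also overlapped for *l(2)gl* and *insc* and for *par-6* and *pins*, although the first of each pair was the higher within every library. The basal adaptors thus led the order and the apical scaffold closed it. Lengths were taken from all annotated exons, so a gene that uses few of its exons in these brains would be placed too low.

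Miranda is the adaptor that carries Brat, Prospero and Staufen to the basal cortex. *mira* (3R, 19931799 to 19935120) gave 1223, 1105 and 1192 CPM at 0 hr, 969, 983 and 1009 CPM at 9 hr and 749, 1081 and 981 CPM at 18 hr. All induced libraries were below all 0 hr libraries, and replicate 1 at 18 hr was the lowest of the 9 by a wide margin. The fitted level was 0.841 of the 0 hr level at 9 hr (95% interval 0.698 to 1.01; edgeR, adjusted p = 0.205) and 0.799 at 18 hr (95% interval 0.662 to 0.963; edgeR, adjusted p = 0.206). Without replicate 1 at 18 hr the log2 fold change at 18 hr went from -0.32 to -0.19 (edgeR, adjusted p = 0.147).

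Partner of Numb is the adaptor for Numb, and *pon* (X, 4636318 to 4639112) had its lowest mean at 9 hr and its highest at 18 hr. It gave 252, 238 and 261 CPM at 0 hr, 211, 227 and 219 CPM at 9 hr and 231, 285 and 273 CPM at 18 hr. The 9 hr libraries lay below all libraries of the other times. The fitted level was 0.876 of the 0 hr level at 9 hr (95% interval 0.770 to 0.996; edgeR, adjusted p = 0.162) and 1.05-fold at 18 hr (95% interval 0.924 to 1.20). From 9 to 18 hr it was 1.20-fold higher, with an interval of 1.06 to 1.37 (edgeR, adjusted p = 0.328). The ratio of *mira* to *pon* CPM, again picked after the values were seen and not tested, was 4.57 to 4.86 at 0 hr, 4.33 to 4.60 at 9 hr and 3.25 to 3.79 at 18 hr, so that all 18 hr libraries were below every other library.

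Numb is the basal cargo that represses Notch signalling in the daughter cell. *numb* (2L, 9437469 to 9464184) gave 233, 226 and 236 CPM at 0 hr, 209, 230 and 227 CPM at 9 hr and 201, 249 and 231 CPM at 18 hr. It had the least difference of the 10 genes at 9 hr, with a fitted level of 0.959 of the 0 hr level (95% interval 0.846 to 1.09), and 0.981 at 18 hr (95% interval 0.866 to 1.11).

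Brat is an RNA-binding repressor of translation and the cargo whose loss made the extra neuroblasts in these brains. *brat* (2L, 19133816 to 19179758, with 12788 bases of exon) was still transcribed in all libraries, with 6617 to 10098 reads. It gave 224, 256 and 281 CPM at 0 hr, 220, 242 and 248 CPM at 9 hr and 197, 280 and 248 CPM at 18 hr. The groups overlapped in all comparisons, and the lowest and nearly the highest library both came from 18 hr. The mean was 254 ± 28.8 CPM at 0 hr (SD, n = 3), 232 ± 17.9 CPM at 9 hr (n = 2) and 242 ± 41.8 CPM at 18 hr (n = 3). The fitted level was 0.933 of the 0 hr level at 9 hr (95% interval 0.757 to 1.15; edgeR, adjusted p = 0.661) and 0.954 at 18 hr (95% interval 0.774 to 1.18; edgeR, adjusted p = 0.863). Ratios of *brat* to *mira* and to *numb* CPM were also picked after the values were seen and not tested. That to *mira* was 0.183 to 0.236 at 0 hr, 0.227 to 0.246 at 9 hr and 0.253 to 0.263 at 18 hr. All 18 hr libraries were thus above every other library in this ratio. Its denominator *mira* was lower at 18 hr (749 to 1081 CPM) than at 0 hr (1105 to 1223 CPM), whereas the *brat* groups overlapped. The ratio to *numb* was 0.961 to 1.19 at 0 hr, 1.05 to 1.09 at 9 hr and 0.980 to 1.12 at 18 hr, with overlap throughout. The larvae carried *brat11* over a deficiency and the study calls the brains *brat*-null, so these reads stand for transcript of the mutant gene. Counts per gene do not show where that transcript is altered. Of the exon bases of *brat*, 151 overlap genes on the opposite strand, of which *CG17568* stood at a mean of 9.57 CPM.

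Over the 9 libraries the genes with the pattern most like that of *brat*, chosen from the 7132 genes that averaged 10 CPM or more, were *DIP2* (Pearson r = 0.968 of log2 CPM), *l(3)76BDr* (0.954), *Utx* (0.946), *spg* (0.945) and *CG5789* (0.942). These are descriptions over 9 libraries that share times, and perhaps dissection days, with no test. The member closest to *brat* was *numb*, with r = 0.862.

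In the list of 6 genes for basal cargo and partners of Numb, 1 rose and 1 fell at 9 hr by edgeR (background 6.62% higher and 5.22% lower). None passed at 18 hr, with 2 of 6 at an unadjusted p under 0.05 (background 17.8%) and 1, *spdo*, by DESeq2. DESeq2 at 9 hr called *AP-2alpha* lower, besides *N* lower and *spdo* higher. *spdo*, which encodes a membrane protein that promotes Notch signalling and is regulated by Numb, rose from 159, 153 and 163 CPM at 0 hr to 227, 216 and 220 CPM at 9 hr (log2 fold change 0.48, SE 0.0834; edgeR, adjusted p = 0.0118), and gave 177, 211 and 225 CPM at 18 hr (edgeR, adjusted p = 0.0687). *N*, the Notch receptor itself, fell from 493, 454 and 475 CPM to 310, 356 and 357 CPM at 9 hr (log2 fold change -0.47, SE 0.0739; edgeR, adjusted p = 0.00818) and gave 400, 426 and 458 CPM at 18 hr. In both genes the 0 and 9 hr libraries did not overlap. The call of *N* held in all 17 alternative settings and that of *spdo* in 16, the exception being without replicate 1 at 9 hr (edgeR, adjusted p = 0.0516). The Miranda cargo genes *pros* and *stau* had log2 fold changes of 0.05 and -0.12 at 9 hr (edgeR, adjusted p = 0.823 and 0.593).

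Kinases and phosphatases that act on the polarity proteins formed a list of 13. By edgeR 0 rose and 4 fell at 9 hr (background 6.62% higher and 5.22% lower). None passed at 18 hr, with 4 of 13 at an unadjusted p under 0.05 (background 17.8%) and 3 by DESeq2, *mts*, *Pp4-19C* and *Pp2A-29B*. The 4 called at 9 hr were phosphatase subunits, as were most genes of the list. The subunits *tws*, *flfl*, *PPP4R2r*, *Pp1-87B* and *Pp1alpha-96A* did not pass at 9 hr (edgeR, adjusted p = 0.176, 0.240, 0.0723, 0.934 and 0.495). DESeq2 at 9 hr called 5 lower, the 4 called by edgeR and *PPP4R2r*. The catalytic subunit of protein phosphatase 2A, *mts*, gave 573, 732 and 752 CPM at 0 hr, 421, 422 and 433 CPM at 9 hr and 526, 451 and 513 CPM at 18 hr. All induced libraries were below all 0 hr libraries, with a log2 fold change of -0.69 at 9 hr (SE 0.104; edgeR, adjusted p = 0.00746) and -0.47 at 18 hr (edgeR, adjusted p = 0.0656). *Pp4-19C*, the catalytic subunit of protein phosphatase 4, fell by 0.28, *Pp2A-29B*, the scaffold of protein phosphatase 2A, by 0.26 and *sds22*, a regulator of protein phosphatase 1, by 0.22 on the log2 scale at 9 hr. Of the 17 alternative settings, *mts* passed in all 17, *Pp4-19C* and *Pp2A-29B* in 14 and *sds22* in 6, and the last 3 did not pass without replicate 3 at 9 hr (edgeR, adjusted p = 0.0562, 0.0559 and 0.127). The mitotic kinase genes *aurA* and *polo* had log2 fold changes of -0.05 and 0.17 (edgeR, adjusted p = 0.709 and 0.157). Among 11 partners and relatives of Brat none passed at either time by edgeR. At an unadjusted p under 0.05 there were 2 of 11 at 9 hr (background 28.6%) and 0 of 11 at 18 hr (17.8%). DESeq2 called *pum* and *Not3*, both lower, at 9 hr and none at 18 hr. The RNA-binding partner of Brat, *pum*, came closest at 9 hr with a log2 fold change of -0.40 (edgeR, adjusted p = 0.0509).

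**Figure D3:**
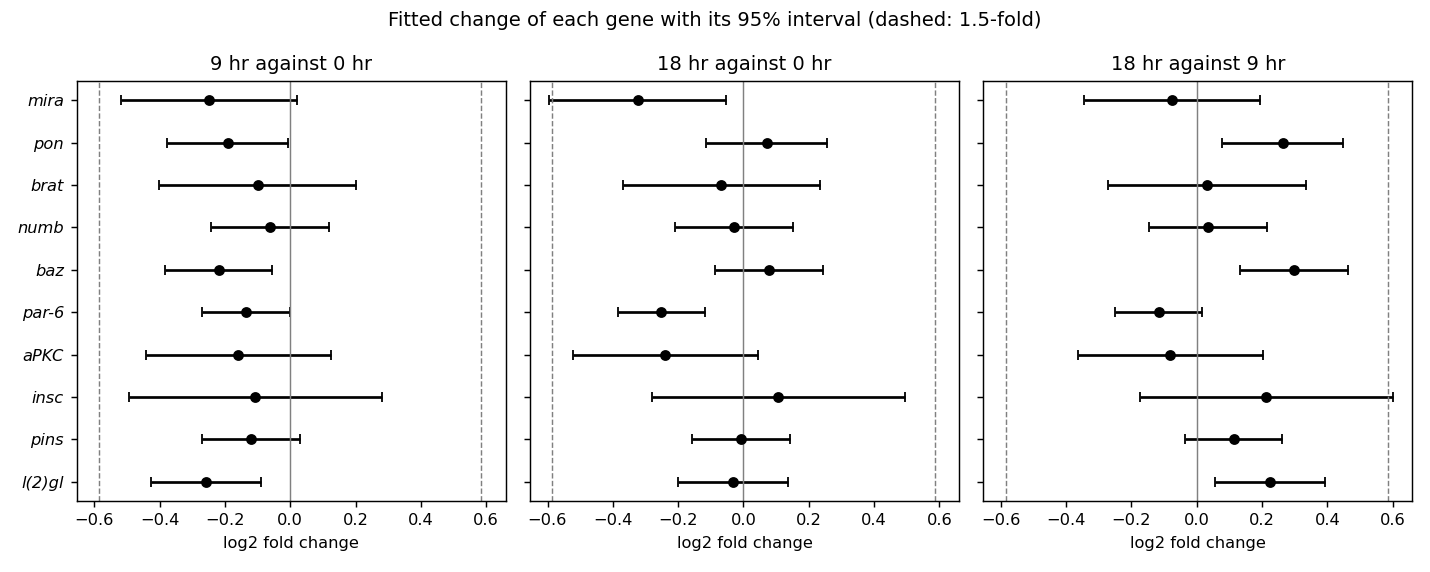
Fitted log2 fold change of each of the 10 genes with its 95% interval at 9 hr against 0 hr, 18 hr against 0 hr and 18 hr against 9 hr; dashed lines mark a 1.5-fold change. All 10 points are below 0 at 9 hr, and among all intervals only those of *mira* at 18 hr against 0 hr and *insc* at 18 hr against 9 hr reach past a dashed line.

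The 3 libraries of each time did not overlap those of 0 hr in 4 of 10 genes at 9 hr, all lower (*l(2)gl*, *baz*, *pon* and *mira*; background 18.9% of genes lower, 21.1% higher and 40% in either direction), and in 2 of 10 at 18 hr, both lower (*par-6* and *mira*; background 9.53% lower, 11.4% higher and 20.9% in either direction). Between 9 and 18 hr they did not overlap in 3 genes that were higher at 18 hr (*l(2)gl*, *baz* and *pon*; background 7.88%) and 1 that was lower (*par-6*; background 10.6%). The smallest two-sided p that exact permutation of 3 and 3 libraries allows for a single gene is 0.1. These counts keep replicates 2 and 3 at 9 hr as separate libraries. With that pair as 1 sample the smallest p would be larger. The intervals set the limits of what these libraries could miss only as far as the 9 libraries are independent. They come from the fit that kept replicates 2 and 3 at 9 hr apart. If that pair is 1 sample, the intervals at 9 hr are too narrow. At 9 hr against 0 hr every interval of the 10 genes lay within a 1.5-fold change in either direction, and at 18 hr against 0 hr all did except that of *mira*, whose lower bound was 0.662.

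The calls at 9 hr depended on 1 library of another time. Without replicate 1 at 18 hr, which enters the shared estimate of spread, 4 of 10 genes passed at 9 hr against 0 hr (edgeR, adjusted p = 0.0242 for *mira*, 0.0443 for *pon*, 0.0489 for *baz* and 0.0494 for *l(2)gl*), and the share of all tested genes called went from 11.8% to 16.1%. That library had the lowest value of its group in 9 of 10 genes, against 38.3% of all tested genes, and also the highest sums of fat body markers (4 genes, 682 CPM, against 9.07 to 238 CPM in the other libraries) and of hemocyte markers (3 genes, 144 CPM, against 5.43 to 70.6 CPM), and the lowest sum of neuroblast renewal genes (1377 CPM). The part of these markers in the result was not tested. Replicate 1 at 9 hr was the lowest of its group in 10 of 10 genes, again against 38.3% of all genes, and without it no gene passed (*l(2)gl*, edgeR, adjusted p = 0.168). With replicates 2 and 3 at 9 hr summed as 1 library no gene passed either (*l(2)gl*, edgeR, adjusted p = 0.102), and 422 genes in all were called in place of 1279.

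**Figure D4:**
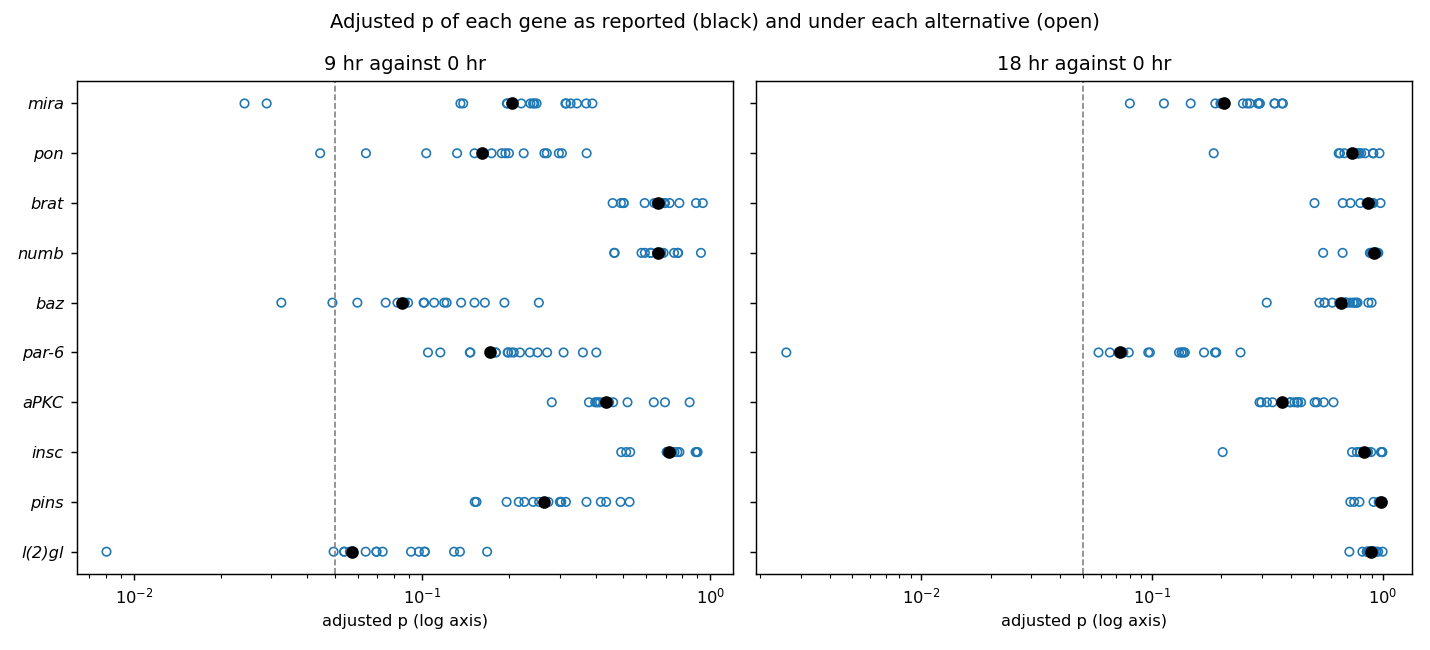
Adjusted p of each of the 10 genes on a logarithmic axis, at 9 hr and at 18 hr against 0 hr; black points are the values as reported, open circles the 17 alternative settings, and the dashed line marks 0.05. At 9 hr circles of *mira*, *pon*, *baz* and *l(2)gl* lie under the line, and at 18 hr a single circle of *par-6* does.

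Most marker genes of the brain's cell types did not pass, and the part of those that did in the values above was not tested. At 9 hr 6.62% of all tested genes were called higher and 5.22% lower, beside which the small counts below are to be read. Among the neuroblast renewal genes 1 of 7 rose and 1 fell at 9 hr: *E(spl)mgamma-HLH*, a Notch target, rose by 0.65 on the log2 scale (edgeR, adjusted p = 0.00218) and by 0.79 at 18 hr (edgeR, adjusted p = 0.00239), and *grh* fell by 0.51 at 9 hr (edgeR, adjusted p = 0.0355). DESeq2 called *klu*, *Myc* and *grh* lower and *E(spl)mgamma-HLH* higher at both times. By edgeR 4 of 7 were at an unadjusted p under 0.05 at each time (background 28.6% at 9 hr and 17.8% at 18 hr). The log2 fold changes of *klu* and *Myc* were -0.48 and -0.48 at 9 hr (edgeR, adjusted p = 0.0512 and 0.0625), and -0.41 and -0.63 at 18 hr. Fitted values were below 0 in 4 of 7 genes at 9 hr and 3 of 7 at 18 hr. The sum of the 7 genes ran from 1895 to 2026 CPM at 0 hr, from 1594 to 1705 CPM at 9 hr and from 1377 to 1950 CPM at 18 hr, and the sum of the 10 asymmetric division genes from 2831 to 3046 CPM, 2451 to 2645 CPM and 2295 to 2958 CPM. In both sums the 9 hr libraries were below all 0 hr libraries and the 18 hr libraries overlapped them. A single gene, *mira*, held 32.6 to 41.2% of the sum of the 10 genes in each library. Mitotic genes summed to 2797 to 3141 CPM at 0 hr, 2600 to 2688 CPM at 9 hr and 2679 to 3051 CPM at 18 hr, and 2 of 12, *CycB* and *CycA*, fell at 9 hr by 0.34 and 0.28. DESeq2 called *stg* lower as well at 9 hr, and only *borr*, higher, at 18 hr. Without replicate 1 at 9 hr neither cyclin passed, nor did *grh* (edgeR, adjusted p = 0.0990, 0.145 and 0.123). Of the neuron markers 1 of 7 rose at 9 hr (*Syt1*, 0.34), and of the glia markers 1 of 6 fell (*wrapper*, -0.60 at 9 hr and -0.52 at 18 hr). At an unadjusted p under 0.05 the counts were 2 of 7 neuron markers at each time, and 3 of 6 and 2 of 6 glia markers (edgeR). DESeq2 also called *VGlut* lower at 9 and 18 hr (log2 fold change -0.15 and -0.24 by edgeR). At 9 hr it also called *alrm* higher (0.40) and *nrv2* lower (-0.44). *Syt1* passed in 8 of 17 alternative settings (edgeR, adjusted p = 0.132 without replicate 3 at 9 hr), and *wrapper* passed in all 17 at 9 hr and in 13 at 18 hr (edgeR, adjusted p = 0.0780 without replicate 3 at 18 hr). Of the heat response genes 1 of 13 rose at 9 hr (*Hsp23*, 1.06). Their sum was highest in an unshifted library, replicate 3 at 0 hr, with 12454 CPM against 5218 and 6134 CPM in the other 0 hr libraries, 7272 to 8915 CPM at 9 hr and 4986 to 10173 CPM at 18 hr. That library was the lowest of its group in 1 of the 10 asymmetric division genes, against 32.2% of all tested genes. A link between its heat response sum and these genes was not tested. None of the 5 muscle, 4 fat body or 3 hemocyte markers passed at 9 or 18 hr against 0 hr (edgeR; none at an unadjusted p under 0.05 or by DESeq2 either).

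The genes varied together over the libraries to differing degrees. Of the 45 pairs, 42 had a Pearson r above 0 over the 9 libraries, with a median of 0.53, and 11 were over 0.7. The highest were *pon* with *baz* (0.940), *baz* with *l(2)gl* (0.900) and *pon* with *l(2)gl* (0.862), the 3 genes whose 9 hr libraries lay below all others. *par-6* gave the only values below 0, with *insc* (-0.26), *pon* (-0.17) and *baz* (-0.12). The libraries share their times and their library composition, so these correlations describe the 9 libraries and carry no test. Pairs drawn from all tested genes were not summarised, so the counts and the median have no background to be read against.

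**Figure D5:**
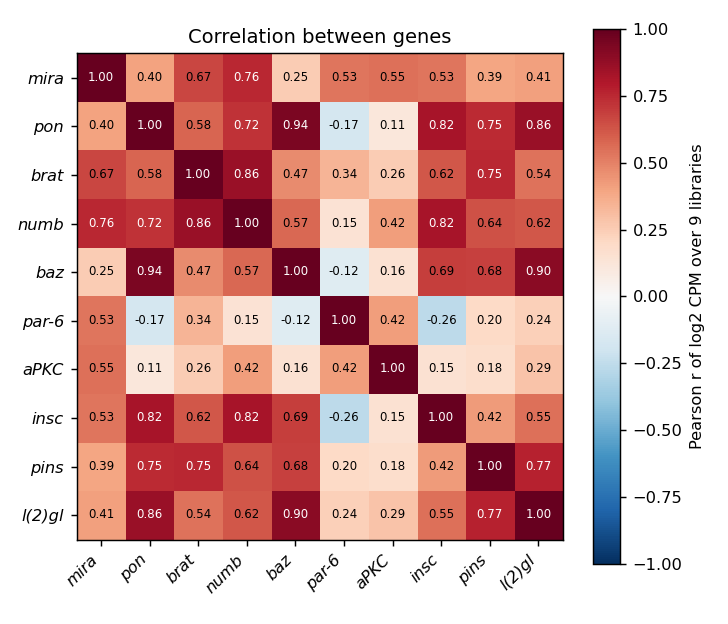
Pearson correlation of log2 CPM over the 9 libraries for each pair of the 10 genes, as a colour from -1 to 1 with the value in each cell. *baz*, *pon* and *l(2)gl* form the block of highest values and *par-6* the row nearest to and below 0.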

How the data were processed

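RNA from whole dissected larval brains was sequenced in 3 libraries at each of 0, 9 and 18 hr of Insb overexpression. The authors deposited read counts per gene, not normalized, in 1 table, and every column was matched to a sample by its title (0 columns unmatched). The submitters' notes and the study's methods name FastQC 0.11.3, HISAT2 2.1.0 with the dm6 genome, StringTie 1.3.4 and DESeq2 1.20.0; the annotation version and any use of strand in counting are not given in the sources used here, so reads of overlapping genes may be misassigned.

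The counts were analysed in R 4.3.3 with edgeR 4.0.16: genes were filtered with filterByExpr (10799 of 14560 kept), scaled by TMM and fitted with group as the only term over all 9 libraries, and p-values of the quasi-likelihood test were adjusted by Benjamini-Hochberg over all tested genes. The call was an adjusted p under 0.05, with no fold minimum. Scripts were tested on simulated data. DESeq2 1.42.0, RLE and upper-quartile scaling, other count filters, fits of only 2 groups, a replicate block, replicates 2 and 3 at 9 hr summed, a fold minimum of 1.5, and each library left out were tried as alternatives. Gene positions and exon lengths came from the Ensembl annotation of dm6, in which 14404 table entries had a length. *pins* was read from the entry *raps* and *insb* from *CG6520*. All 10 genes were named throughout; from the other lists up to 4 genes per direction with the largest change among those called, and *insb*, were named, besides genes close to the threshold or of known role that were chosen after their values were seen. The 10 genes and the lists were chosen with earlier results of these data known. Levels per kilobase are CPM divided by the length of all annotated exons. No p-value was computed for correlations or ratios. No protein, promoter or transcript sequence was used here.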

Additional observations from a re-analysis of the deposited data

How the results depend on the processing

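Of the 10 asymmetric division genes, the number called at 9 hr against 0 hr was 0 as reported, 1 with only the 2 groups compared (*mira*, edgeR, adjusted p = 0.0289), 2 with DESeq2 (*l(2)gl*, adjusted p = 0.00804, and *baz*, 0.0325) and 0 to 4 with each library left out, the 4 without replicate 1 at 18 hr. DESeq2 called 1 at 18 hr against 0 hr (*par-6*, adjusted p = 0.00259) and 1 at 18 hr against 9 hr (*baz*, adjusted p = 0.0197), where the count was 0 with each library left out. With the fold minimum of 1.5 none was called in any setting. Over all genes, 1279 were called at 9 hr and 179 at 18 hr against 0 hr, 2027 and 785 with DESeq2, 422 and 73 with replicates 2 and 3 at 9 hr summed, 31 at 18 hr with only the 2 groups compared, and 419 to 1761 and 47 to 282 with each library left out. DESeq2 called 227 genes at 18 hr against 9 hr, where edgeR called 1. Why DESeq2 called more was not tested. With the replicate block 0 of 10 genes were called in each comparison (909 and 78 of all genes); deviations of same-numbered libraries had correlations of -0.257 to 0.444, so the numbers are not taken to pair the libraries.

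Signs turned only among small values at 18 hr. Against 0 hr, with each library left out, log2 fold changes ran from -0.0697 to 0.0129 for *l(2)gl* (1.04e-05 without replicate 1 at 18 hr), -0.00354 to 0.286 for *insc*, -0.0982 to 0.0524 for *numb*, -0.0572 to 0.0372 for *pins*, -0.186 to 0.0584 for *brat*, -0.0442 to 0.00803 for *zip*, -0.0788 to 0.0157 for *sds22* and -0.0349 to 0.127 for *Syt1*. Against 9 hr they ran from -0.189 to 0.0627 for *mira*, -0.0374 to 0.114 for *numb* and -0.0859 to 0.159 for *brat*. *pins* was at 0.00382 with upper-quartile scaling and at 0.00214 where 10 or more reads per library were required. At 9 hr against 0 hr all 10 genes were below 0 in every setting; at 18 hr 3 to 7 were against 0 hr and 2 to 5 against 9 hr with each library left out. The causes were not tested. Every gene rested on at least 2265 reads per library; with 3 libraries a time, a pair of them close to sampling noise at 9 hr, the spread between libraries was estimated from few samples.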
